A study of Homo sapiens with 6 samples.

Results

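G0S2 and 9 other genes of lipid droplet turnover were followed through 6 RNA-seq libraries of cells labelled as a neuroblast line, in 3 of which the long non-coding RNA LINC00894 was knocked down. The 10 genes were taken by symbol from the 40111 genes of the deposited table: G0S2, HILPDA, PNPLA2, ABHD5, LIPE, MGLL, PLIN2, PLIN3, DGAT1 and DGAT2. They were chosen by their role at the droplet, with the FPKM differences between knockdown and control of these same libraries known, so those differences are given for them as a description with no p-value, and the calls of the fit across all genes are only counted for them beside the share of all genes called. All 10 passed the filter on low values, and all 10 were among the 18548 genes tested.

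The knockdown group held 3 libraries of cells labelled BE(2)-M17, a human neuroblastoma line given as neuroblast from brain, given a CRISPR-Cas9 vector against LINC00894, whose function in these cells the series set out to study. The control group held 3 libraries of the same line with the genotype label NC, which the labels do not spell out. Neither the guide, the number of clones nor the time after the vector was introduced is given in the sources used here, and no label ties the replicates to different cultures. The p-values below therefore weigh differences only against how these libraries vary, possibly for technical reasons. LINC00894 read 1.10, 1.30 and 0.867 FPKM in knockdowns 1, 2 and 3, against 2.00, 2.24 and 2.21 FPKM in controls 1, 2 and 3 (log2 fold change -0.93, SE 0.17, limma adjusted p = 0.0406).

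The neuroblast label was only partly borne out by 13 neuroblast markers in the table. GATA2, GATA3, ISL1 and HAND2 were measured, with GATA2 at 27.1 to 29.7 FPKM in the knockdowns and 16.2 to 24.9 FPKM in the controls. PHOX2A, a transcription factor of noradrenergic neurons, reached no more than 0.0390 FPKM in any library. DBH, which makes noradrenaline, stayed at or below 0.366 FPKM, and STMN2 at or below 0.0815 FPKM. The cells are therefore called here by their label only. Of these markers 7 were tested and 0 passed, with 3 at an unadjusted p under 0.05 and 1 called by limma-voom.

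Cells store surplus fatty acids as triglyceride in lipid droplets, whose surface is coated by perilipins. DGAT1 and DGAT2 join the last fatty acid to make triglyceride, and PNPLA2, also called adipose triglyceride lipase, removes the first one again. ABHD5 activates PNPLA2, whereas the small proteins G0S2 and HILPDA bind and inhibit it. LIPE and MGLL then split the diglyceride and the monoglyceride. Neurons keep few droplets, and droplet genes are best known from fat cells, liver and muscle.

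The libraries held between 22898079 and 48089716 assigned reads, so that 1 read in a gene model of 1 kb was worth 0.0208 to 0.0437 FPKM. Control 1 stood apart from the other controls. The chi-square per gene was 70.2 between controls 1 and 2 and 80.2 between controls 1 and 3, against 3.77 to 7.08 between knockdowns and 11.5 between controls 2 and 3. In 60.8% of genes tested control 1 lay closer to the knockdown average than to the average of controls 2 and 3, likewise in 8 of the 10 droplet genes, all but PLIN2 and DGAT1. For the 10 droplet genes each difference is therefore also given against control 1 alone and against controls 2 and 3.

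G0S2 (ENSG00000123689), the inhibitor of PNPLA2, was lower in every knockdown than in any control. It measured 4.34, 4.71 and 4.96 FPKM in knockdowns 1, 2 and 3, against 9.55, 16.9 and 23.8 FPKM in controls 1, 2 and 3. The knockdowns lay close together and the controls were spread widely, with control 1 the lowest control. These values rested on 87, 117 and 125 reads in the knockdowns and on 245, 710 and 901 reads in the controls, in a gene model of 876 bases. The log2 fold change, on the scale of log2(FPKM + 0.1) used throughout, was -1.73 (SE 0.31, n = 3 per group), or 3.31-fold lower, and it ranked 74 from the lowest of the 18548 genes tested. Against control 1 alone the difference was -1.02, and against controls 2 and 3 it was -2.08. The authors' deposited table gives G0S2 a log2 fold change of -1.98 from mean scaled reads of 126 in the knockdowns and 498 in the controls.

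In GENCODE 29 (GRCh38), G0S2 occupies 209675420 to 209676388 of chromosome 1, plus strand. AL031316.1, an antisense RNA over the same locus, shares 0 exon bases with it and had 3 to 6 reads per library; the protocol does not separate strands. The 250 bases before the RefSeq start of G0S2 and of PLIN2, the droplet genes called lower and higher in the fit across all genes, are shown because both hold the same short motif. Capitals mark ACGTG or GCGTG on either strand, the core recognised by hypoxia-inducible factors, read 5′ to 3′ along the strand of the gene. G0S2 is at chr1:209675162-209675411 on the plus strand, PLIN2 at chr9:19127493-19127742 on the minus strand of GRCh38.p14.
G0S2: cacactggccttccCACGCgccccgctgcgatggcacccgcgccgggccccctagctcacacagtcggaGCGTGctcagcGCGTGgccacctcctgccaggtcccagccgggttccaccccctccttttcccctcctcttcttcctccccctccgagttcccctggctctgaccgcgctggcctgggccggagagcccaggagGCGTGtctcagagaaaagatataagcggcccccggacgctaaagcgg
PLIN2: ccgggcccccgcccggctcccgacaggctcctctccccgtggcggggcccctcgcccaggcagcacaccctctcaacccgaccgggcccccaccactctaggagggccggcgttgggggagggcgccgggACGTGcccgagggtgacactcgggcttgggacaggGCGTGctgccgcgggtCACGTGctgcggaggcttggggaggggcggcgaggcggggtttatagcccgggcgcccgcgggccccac
Each window held 4 matches, of which a pair in PLIN2 overlap in the E-box CACGTG. Such a match is common: 43.2% of 35116 RefSeq promoter windows of this length held at least 1, and 4 of the 6 droplet genes with a window did. PLIN3, which was not called, held 3 and ABHD5 held 1, while PNPLA2 and LIPE held 0. The share of windows with 4 matches is not given here, so whether 4 is unusual cannot be said. PLIN2 also held TATAAA on the opposite strand (10.7% of windows), and its CACGTG was shared with 6.34% of windows. Neither window held, on either strand, TGACGTCA (1.65% of windows), its part TGACG (21.2%), TGANTCA (6.57%), TGATGNAA (3.14%) or the direct repeat bound by PPAR (0.0171%).

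Blood leukocytes also express G0S2, and levels of blood cell markers varied between these libraries; their part in the result was not tested. The summed level of 13 neutrophil and monocyte markers was 54.9, 167 and 197 FPKM in knockdowns 1, 2 and 3, against 3.32, 1.46 and 288 FPKM in controls 1, 2 and 3. S100A9 alone gave 35.0, 117 and 133 FPKM of this in the knockdowns and 202 FPKM in control 3, so the sum mostly follows that gene. Of the 9 markers tested 0 passed in limma, with 4 at an unadjusted p under 0.05 and 3 called higher by limma-voom. The groups did not overlap in 3 of the 9, all higher in the knockdowns, against 23.9% of all genes higher and 14.3% lower. None of the 13 was at 0 in every library, but LYZ, FCN1, TYROBP and PTPRC, the pan-leukocyte surface marker, were at 0 in control 1. CD14 and ITGAM of the same list went the other way, with control 1 the highest control at 0.746 and 0.522 FPKM. Summed red cell markers were 853, 374 and 439 FPKM in the knockdowns and 6.21, 3.61 and 66.03 FPKM in the controls, where 3 of 5 tested passed, all higher.

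The 7 fat cell markers in the table summed to 5.21 to 6.11 FPKM in the knockdowns and to 5.78, 15.5 and 10.7 FPKM in controls 1, 2 and 3. PCK1, a gluconeogenic enzyme also made in fat cells, gave 0.569 to 0.733 FPKM of this in the knockdowns and 0.941, 11.5 and 6.77 FPKM in controls 1, 2 and 3. LEP, the fat hormone leptin, did not exceed 0.204 FPKM in any library. Of 3 tested, 0 passed in limma and in limma-voom, with 1 at an unadjusted p under 0.05. Fibroblast and endothelial markers summed to 7.47 to 7.96 FPKM in the knockdowns and 6.58 to 8.96 FPKM in the controls, and 0 of 3 tested passed in either tool, with 0 at an unadjusted p under 0.05. In bulk RNA, fewer cells of a type and less RNA per cell cannot be told apart.

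**Figure D1:**
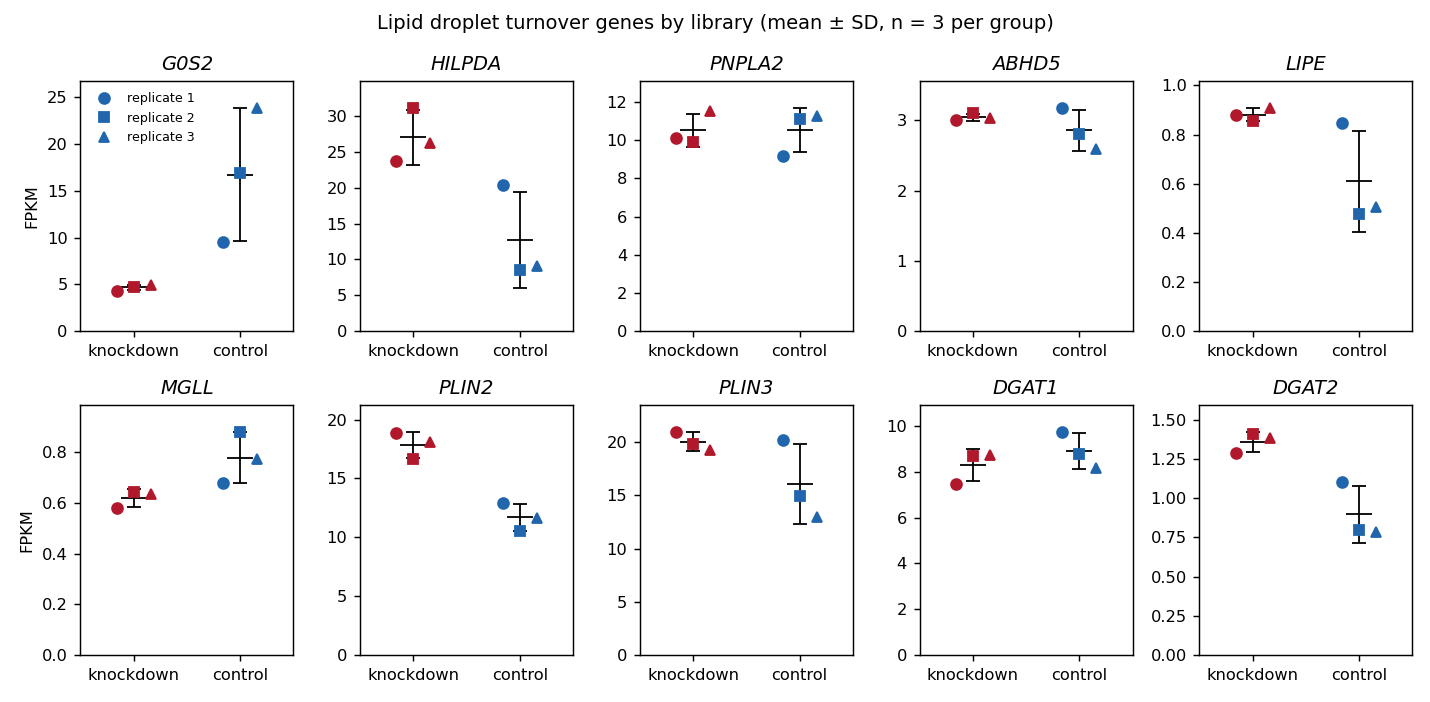
FPKM of the 10 droplet genes in each library (y axes, from 0), knockdown in red and control in blue, with symbols for the replicate number and bars for the mean ± SD of 3 libraries. G0S2 sits between 4.34 and 4.96 FPKM in the knockdowns, below all controls, and HILPDA between 23.7 and 31.1 FPKM, above all controls, with control 1 the nearest control for both genes.

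HILPDA (ENSG00000135245), the hypoxia-induced inhibitor of the same lipase, went the other way. It measured 23.7, 31.1 and 26.2 FPKM in the knockdowns, against 20.4, 8.55 and 9.03 FPKM in controls 1, 2 and 3. The groups did not overlap, and control 1 lay near the knockdowns, at more than either other control. The log2 fold change was 1.20 (SE 0.33), on 1123 to 1827 reads in the knockdowns and 808 to 1235 reads in the controls. Against control 1 alone the difference was 0.40, and against controls 2 and 3 it was 1.60. The authors' deposited table has 0.9977 for HILPDA. HILPDA occupies 128455849 to 128458418 of chromosome 7, plus strand, and shares 175 and 186 exon bases with the same-strand transcripts AC010655.4 and AC010655.2, which were not analysed here.

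Since both inhibitors act on PNPLA2, their levels per length were set side by side within each library. G0S2 and HILPDA together came to 28.0, 35.9 and 31.2 FPKM in the knockdowns and 29.9, 25.4 and 32.8 FPKM in the controls, so that the sums overlapped between groups. Their makeup did not overlap, which follows from G0S2 being lower and HILPDA higher in every knockdown than in any control. It is therefore no separate observation. G0S2 was 15.5%, 13.1% and 15.9% of the sum in the knockdowns, against 31.9%, 66.3% and 72.5% in controls 1, 2 and 3. HILPDA thus exceeded G0S2 in all 3 knockdowns and in control 1, and G0S2 exceeded HILPDA in controls 2 and 3. Per transcript of PNPLA2, G0S2 stood at 0.445 ± 0.026 in the knockdowns and 1.56 ± 0.54 in the controls (ratio of FPKM, SD, n = 3 each). HILPDA stood at 2.59 ± 0.48 in the knockdowns and 1.26 ± 0.83 in the controls. Control 1 had 1.04 for G0S2, against 1.51 and 2.11 in controls 2 and 3. For HILPDA control 1 had 2.22, close to the lowest knockdown at 2.28, against 0.768 and 0.801 in controls 2 and 3.

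**Figure D2:**
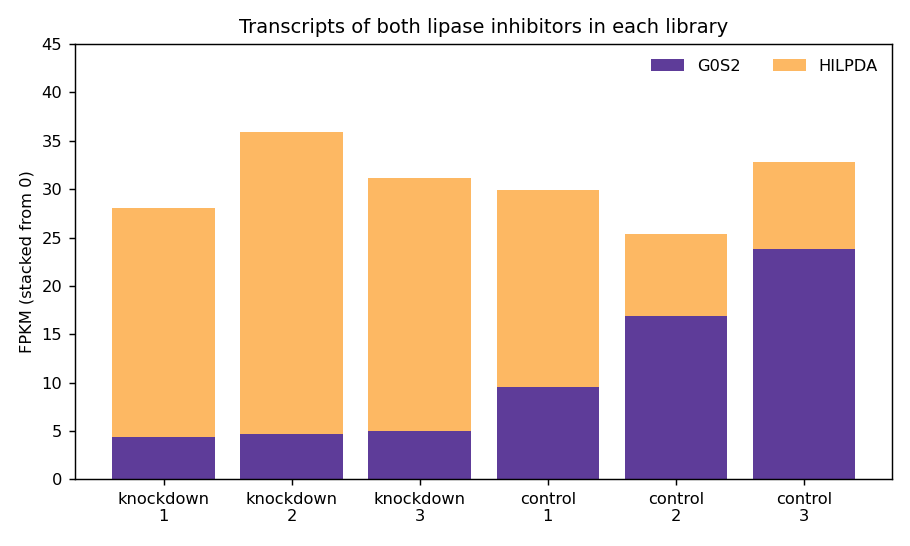
FPKM of G0S2 (purple) and HILPDA (orange) stacked from 0 in each library. The stacks reach 28.0 to 35.9 FPKM in the knockdowns and 25.4 to 32.8 FPKM in the controls, while the purple part is 13.1% to 15.9% in the knockdowns and 31.9% to 72.5% in the controls.

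The lipase itself and its activator showed little difference. PNPLA2 (ENSG00000177666, chromosome 11 from 818902 to 825573) measured 10.1, 9.92 and 11.5 FPKM in the knockdowns and 9.18, 11.1 and 11.3 FPKM in the controls, and the groups overlapped. Its log2 fold change was 0.00 (SE 0.11), and with median-of-ratios size factors it was -0.12. The difference for PNPLA2 was 0.19 against control 1 alone and -0.09 against controls 2 and 3. ABHD5 (ENSG00000011198, chromosome 3 from 43690108 to 43734371), the activator, measured 3.001, 3.10 and 3.03 FPKM in the knockdowns and 3.18, 2.80 and 2.60 FPKM in the controls, again with overlap. Its log2 fold change of 0.09 (SE 0.11) became -0.03 with median-of-ratios size factors, and it was -0.06 against control 1 alone and 0.17 against controls 2 and 3. The size factors shift all genes together, moving the median log2 fold change of the 18548 genes from 0.07 to -0.05. ABHD5 shares 170 exon bases with ANO10 on the opposite strand, whose reads there cannot be told apart from its own.

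The lipases that follow PNPLA2 were scarce. LIPE (ENSG00000079435, chromosome 19 from 42401507 to 42427426), hormone-sensitive lipase, measured 0.880, 0.855 and 0.909 FPKM in the knockdowns and 0.847, 0.475 and 0.507 FPKM in the controls. All knockdowns exceeded all controls, but control 1 fell short of the lowest knockdown by under 0.01 FPKM, and the log2 fold change of 0.50 (SE 0.26) was 0.05 against control 1 alone and 0.73 against controls 2 and 3. LIPE rested on 104 to 135 reads in the knockdowns and 113 to 128 reads in the controls, and it shares 500 exon bases with LIPE-AS1 on the opposite strand, which had 68 to 306 reads per library. MGLL (ENSG00000074416, chromosome 3 from 127689062 to 128052190), which splits monoglycerides and the endocannabinoid 2-arachidonoylglycerol, measured 0.579, 0.643 and 0.636 FPKM in the knockdowns and 0.680, 0.883 and 0.773 FPKM in the controls. It was lower in all knockdowns, with a log2 fold change of -0.28 (SE 0.22) and a difference of -0.12 from control 1 alone and -0.37 from controls 2 and 3.

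Of the droplet coats, PLIN2 was higher in every knockdown than in any control, and for PLIN3 the groups overlapped. PLIN2 (ENSG00000147872, chromosome 9 from 19108375 to 19149290), the coat that is stabilised by stored lipid in most cells, measured 18.9, 16.6 and 18.1 FPKM in the knockdowns and 12.9, 10.5 and 11.6 FPKM in controls 1, 2 and 3. Control 1 lay with the other controls here, and the log2 fold change was 0.61 (SE 0.09), against 0.47 from control 1 alone and 0.68 from controls 2 and 3. The value for PLIN2 in the authors' deposited table is 0.49. PLIN3 (ENSG00000105355, chromosome 19 from 4838341 to 4867768), a coat that moves between cytosol and droplets, measured 21.0, 19.8 and 19.3 FPKM in the knockdowns and 20.2, 15.0 and 13.0 FPKM in the controls. Control 1 lay inside the range of the knockdowns for PLIN3, with a difference of -0.01. The difference from controls 2 and 3 was 0.52, and the log2 fold change against all controls was 0.34 (SE 0.16). PLIN3 exceeded PLIN2 in all 6 libraries. It shares 502 exon bases with the antisense RNA AC027319.1, which was not analysed here.

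In triglyceride synthesis DGAT2 and DGAT1 were read side by side. DGAT2 (ENSG00000062282, chromosome 11 from 75759512 to 75801535), the acyltransferase tied to newly made fatty acids, measured 1.29, 1.41 and 1.38 FPKM in the knockdowns and 1.11, 0.800 and 0.787 FPKM in the controls, with no overlap. Its log2 fold change was 0.56 (SE 0.19), and the difference was 0.28 against control 1 alone and 0.71 against controls 2 and 3. DGAT1 (ENSG00000185000, chromosome 8 from 144314584 to 144326910), which also re-esterifies fatty acids freed from droplets, measured 7.495, 8.70 and 8.75 FPKM in the knockdowns and 9.77, 8.80 and 8.19 FPKM in the controls, with overlap. Its log2 fold change was -0.10 (SE 0.10), with -0.23 against control 1 alone and -0.03 against controls 2 and 3. The FPKM of DGAT2 per FPKM of DGAT1 was 0.164 ± 0.007 in the knockdowns and 0.1001 ± 0.012 in the controls (SD, n = 3 each). DGAT1 shares 139 exon bases with HSF1 on the opposite strand, a gene with 1554 to 3246 reads per library.

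**Figure D3:**
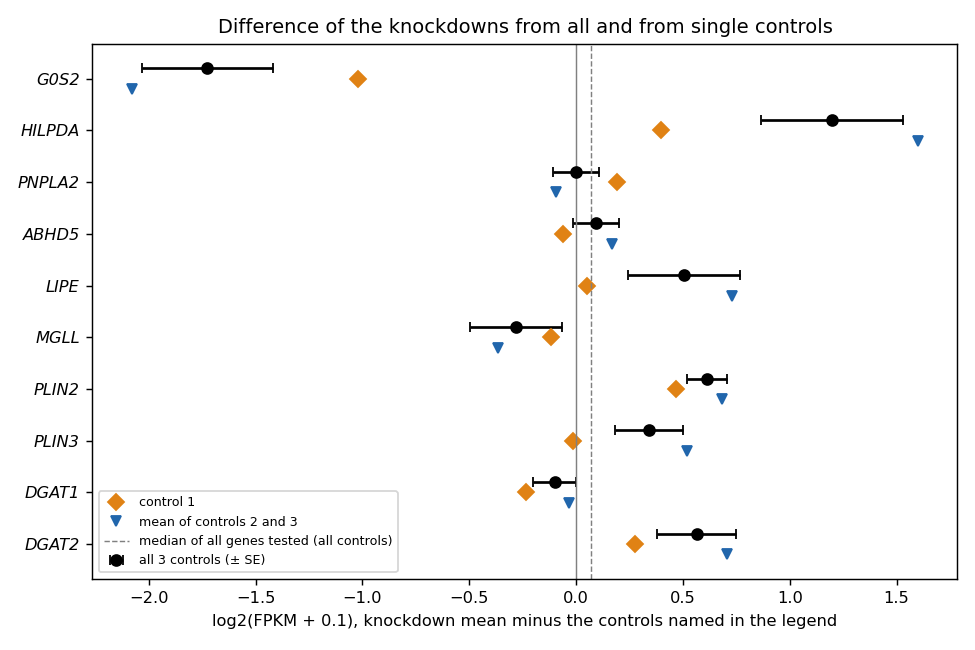
Difference of the mean log2(FPKM + 0.1) of the 3 knockdowns from all 3 controls (black, ± SE of the fit), from control 1 (orange diamonds) and from controls 2 and 3 (blue triangles), with the median of all genes tested dashed. For G0S2 the values are -1.73, -1.02 and -2.08, for HILPDA 1.20, 0.40 and 1.60, and for PLIN2 0.61, 0.47 and 0.68.

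Across the 10 genes, 1 was called higher, PLIN2, and 1 lower, G0S2, in the fit across all genes (limma, adjusted p under 0.05), while 8 were not called. In the same fit 4.14% of all genes were called higher and 2.06% lower, 6.20% in all. The groups did not overlap in 6 of the 10 genes, 4 higher and 2 lower, against 38.2% of all genes, 23.9% higher and 14.3% lower. Since the genes were chosen with this contrast known, nothing is read from these counts. The median log2 fold change was 0.22 over the 10 genes and 0.07 over all genes tested. Without control 1, 6 of the 10 were called, with HILPDA, PLIN3, LIPE and DGAT2 as the additions, where 43.6% of all genes were called. With each of the remaining 5 libraries left out in turn 0 of the 10 were called in limma, with 3 or 4 at an unadjusted p under 0.05, and 0.00% of all genes passed. With the replicate number as a block 0 of the 10 were called in limma, with 5 at an unadjusted p under 0.05, where 0.00% of all genes were called. With limma-voom on recovered reads 4 were called (14.8% of all genes), G0S2, PLIN2, HILPDA and DGAT2. The count stayed at 2 with median-of-ratios size factors (4.49% of all genes), a CPM filter (12.2%), a pseudocount of 1 FPKM (7.70%) and a pseudocount of 0.01 FPKM (5.39%). It was 0 in limma with no filter (0.105% of all genes, 4 of the 10 at an unadjusted p under 0.05) and with no mean-variance trend (0.491%, 5 of the 10).

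The order of mean levels per length also differed between the groups, although control 1 alone ran close to the order of the knockdowns. Among the knockdowns it ran, by mean FPKM, from HILPDA at 27.0 ± 3.8 through PLIN3 at 20.04 ± 0.89, PLIN2 at 17.9 ± 1.1, PNPLA2 at 10.5 ± 0.9, DGAT1 at 8.31 ± 0.71, G0S2 at 4.67 ± 0.31, ABHD5 at 3.04 ± 0.05, DGAT2 at 1.36 ± 0.07 and LIPE at 0.881 ± 0.027 to MGLL at 0.619 ± 0.035 (SD, n = 3), and no neighbours in this order overlapped. In the controls G0S2 led at 16.7 ± 7.1 FPKM, followed by PLIN3 at 16.1 ± 3.7, HILPDA at 12.7 ± 6.7, PLIN2 at 11.7 ± 1.2, PNPLA2 at 10.5 ± 1.2 and DGAT1 at 8.92 ± 0.80 FPKM. Each of these 6 overlapped its neighbour, so their order among the controls is not separated by the spread. ABHD5 at 2.86 ± 0.29 FPKM stood clear of its neighbours, and DGAT2 at 0.898 ± 0.181, MGLL at 0.779 ± 0.101 and LIPE at 0.610 ± 0.206 FPKM overlapped at the lower end. In control 1 alone HILPDA at 20.4, PLIN3 at 20.2 and PLIN2 at 12.9 FPKM led, as in the knockdowns. DGAT1 at 9.77, G0S2 at 9.55 and PNPLA2 at 9.18 FPKM came next, with PNPLA2 below DGAT1 and G0S2 rather than above them. The remaining genes kept the order of the knockdowns.

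The genes whose pattern over the 6 libraries was most like that of G0S2 were IFNL1, a type III interferon, MAP1LC3C, an autophagy protein of the LC3 family, CCL5 and CXCL10, chemokines, and ISG15, a ubiquitin-like interferon-induced protein. Likeness was the root mean square difference of log2(FPKM + 0.1) profiles over 6 libraries, each centred on its own mean. It was taken for 13478 tested genes with a mean of at least 1 FPKM, leaving out symbols that are clone or locus identifiers. It was 0.181 for IFNL1, 0.195 for MAP1LC3C, 0.207 for CCL5, 0.248 for ISG15 and 0.264 for CXCL10, against a median of 0.982 over all genes compared and 1.65 for HILPDA. A gene with the same level in every library would lie at 0.945, near that median. IFNL1 measured 4.395, 5.78 and 3.94 FPKM in the knockdowns and 9.92, 17.9 and 23.4 FPKM in controls 1, 2 and 3. CCL5 measured 81.8, 105 and 99.8 FPKM in the knockdowns and 149, 337 and 349 FPKM in the controls. In IFNL1, CCL5 and the other nearest genes, as in G0S2, control 1 lay between the knockdowns and the other controls. That follows from picking them by likeness to G0S2 over the same 6 libraries and is no separate observation.

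**Figure D4:**
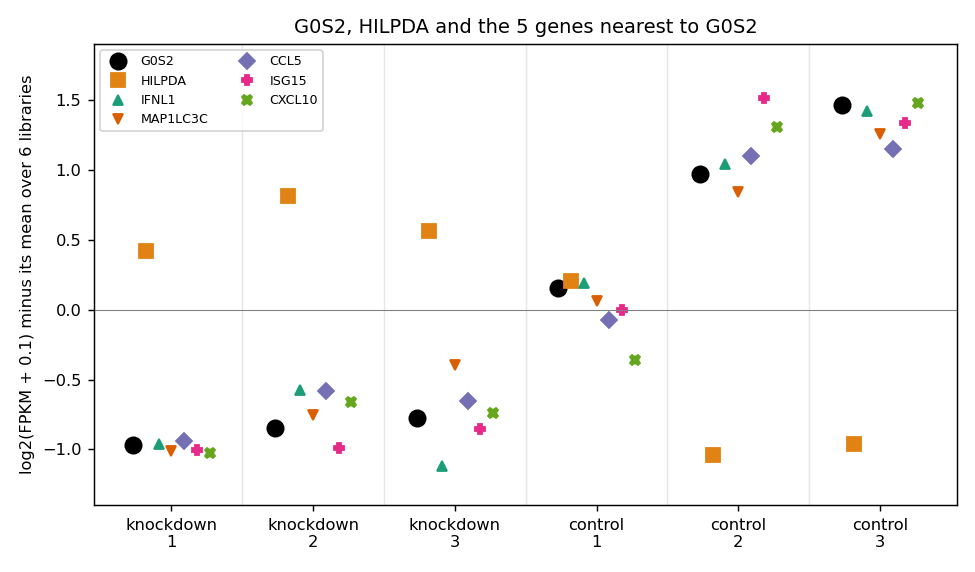
Log2(FPKM + 0.1) minus its mean over the 6 libraries for G0S2 (black circles), HILPDA (orange squares) and the 5 genes nearest to G0S2 (small symbols), by library on the x axis. The nearest genes lie within a root mean square difference of 0.181 to 0.264 of G0S2, and HILPDA lies at 1.65.

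Beyond the 10 genes, 8 lists of other lipid genes were read in the same fit, again with earlier results known. Of 139 genes tested, 4 rose, 4 fell and 131 did not pass (limma, adjusted p under 0.05), which is 5.76% against 6.20% of all genes, and their median log2 fold change was 0.02 against 0.07. With median-of-ratios size factors 2 rose and 7 fell in place of 4 and 4. Without control 1 the count was 64 of 139, where 43.6% of all genes were called, and with each remaining library left out in turn it was 0 in limma, with 24 to 32 at an unadjusted p under 0.05.

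Droplet coats and fusion proteins other than PLIN2 and PLIN3 were low, and 0 of 3 tested passed in limma, with 1 at an unadjusted p under 0.05 and 1 called higher by limma-voom. The smallest p was that of PLIN1, the coat of fat cell droplets, at 1.31, 0.902 and 1.15 FPKM in the knockdowns and 0.711, 0.241 and 0.335 FPKM in the controls (log2 fold change 1.29, SE 0.37, limma adjusted p = 0.0778). Among 23 genes of droplet formation and remodelling, 1 rose, FAF2, the droplet-resident adaptor also called UBXD8 that recruits VCP, at 36.3 ± 1.4 FPKM in the knockdowns and 27.0 ± 2.7 FPKM in the controls (SD, n = 3; log2 fold change 0.43, SE 0.09, limma adjusted p = 0.0445). With median-of-ratios size factors FAF2 did not pass (limma adjusted p = 0.0558). Of 15 other neutral lipid hydrolases, 1 fell, PNPLA3, a droplet-bound relative of PNPLA2 best known from fatty liver. PNPLA3 measured 5.06, 4.90 and 4.60 FPKM in the knockdowns and 6.04, 6.90 and 6.78 FPKM in the controls (log2 fold change -0.43, SE 0.09, limma adjusted p = 0.0456).

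In triglyceride and steryl ester synthesis 0 of 16 passed in limma, with 5 at an unadjusted p under 0.05 and 1 called higher and 1 lower by limma-voom. With median-of-ratios size factors 1 of these genes fell. The smallest p belonged to LPIN2, a phosphatidate phosphatase, with a log2 fold change of 0.52 (SE 0.14, limma adjusted p = 0.0654). In fatty acid uptake and binding 0 of 13 passed, with 2 at an unadjusted p under 0.05 and 1 called lower by limma-voom. DBI, the acyl-CoA binding protein, had the smallest p, with a log2 fold change of 0.29 (SE 0.07, limma adjusted p = 0.0556). In fatty acid synthesis and desaturation 0 of 19 passed, with 5 at an unadjusted p under 0.05 and 2 called lower by limma-voom. With median-of-ratios size factors 1 of this list fell. ACLY, which makes cytosolic acetyl-CoA from citrate, had the smallest p there, with a log2 fold change of 0.27 (SE 0.06, limma adjusted p = 0.0512).

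Fatty acid oxidation held 1 rise and 1 fall among 25 genes. EHHADH, an enzyme of peroxisomal oxidation, was at 4.64 ± 0.40 FPKM in the knockdowns and 2.94 ± 0.33 FPKM in the controls (SD, n = 3; log2 fold change 0.64, SE 0.12, limma adjusted p = 0.0402). ACADVL, the first dehydrogenase of mitochondrial oxidation of very long chains, was at 39.2 ± 3.0 FPKM in the knockdowns and 54.3 ± 4.2 FPKM in the controls (SD, n = 3; log2 fold change -0.47, SE 0.09, limma adjusted p = 0.0402). Here control 1, at 58.5 FPKM, was the control farthest from the knockdowns. With median-of-ratios size factors EHHADH did not pass (limma adjusted p = 0.0716) and ACADVL did.

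Among 25 regulators of lipid storage genes, 2 rose and 2 fell. PRKACB, a catalytic subunit of protein kinase A, the kinase that starts lipolysis in fat cells, was at 7.70, 7.15 and 7.35 FPKM in the knockdowns and 4.65, 3.36 and 4.23 FPKM in the controls (log2 fold change 0.85, SE 0.13, limma adjusted p = 0.0358). NRBF2, a nuclear receptor binding protein that also joins the autophagy lipid kinase complex, had a log2 fold change of 0.63 (SE 0.10, limma adjusted p = 0.0379). SREBF2, the main activator of cholesterol synthesis genes, had -0.33 (SE 0.06, limma adjusted p = 0.0411). CEBPG, a bZIP transcription factor, had -0.65 (SE 0.13, limma adjusted p = 0.0453), and with median-of-ratios size factors it did not pass (limma adjusted p = 0.0508). CEBPG measured 31.7 to 32.0 FPKM in the knockdowns, and of its controls the first was nearest to them at 40.5 FPKM, with 53.3 FPKM in control 2 and 57.9 FPKM in control 3.

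**Figure D5:**
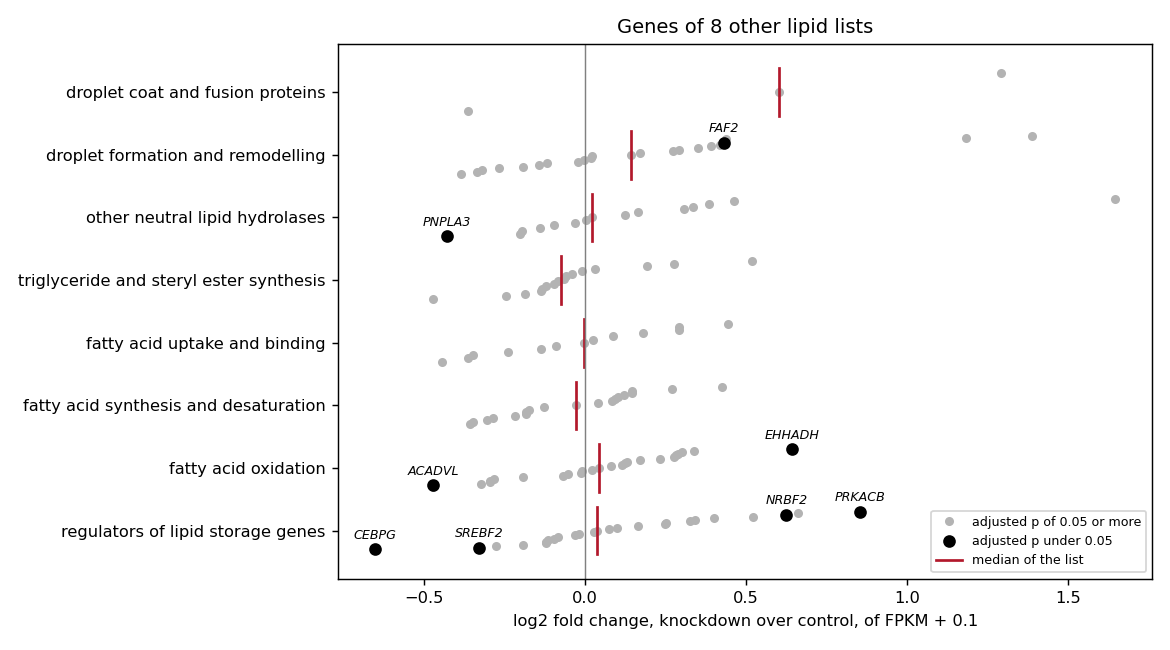
Log2 fold change of knockdown over control (x axis) for the genes of 8 other lipid lists, with the 8 genes past an adjusted p of 0.05 in black and named, the rest grey, and the median of each list as a red bar. The median is 0.60 in the list of 3 droplet coats and lies between -0.07 and 0.14 in the other 7 lists.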

How the data were processed

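Poly(A) RNA was primed at random and copied with no step that marks the strand, per the labels' protocols. Alignment software is given as HISAT2 per the submitters' processing notes. Its version, the counter, the build and the gene models were not given in the sources used here. For each gene the authors deposited FPKM per library, judged from the values, with a mean read signal per group, a log2 fold change and p-values whose test is not given, per the file headers. Each of the 6 library columns was matched to a title.

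Whole reads were recovered from the FPKM ratios and group means with Python 3.11.15 and pandas 2.3.3: within 0.1 read, 100% of values above 0 came out whole. The 10 genes and all lists were chosen with earlier results of these data known. Genes reaching 0.5 FPKM in 3 or more libraries entered limma 3.58.1 (R 4.3.3) on log2(FPKM + 0.1), with a mean-variance trend, group as the only term and Benjamini-Hochberg adjustment over 18548 genes. A log2 fold change on this scale understates the change of low genes. Named beside the 10 genes were, in each lipid list, those past the threshold or else the one with the smallest p, and the 5 nearest to G0S2. The fit was tried on counts simulated with the same dispersion of 0.02 in all 6 libraries, thus with no outlying control 1, unlike these data. With 200 of 18548 genes changed, it called 60% of 2-fold and 91% of 4-fold changes. Of its 165 calls 14 were false. Coordinates are from GENCODE 29 on GRCh38 and promoters from RefSeq on GRCh38.p14, matched by symbol for 6 of the 10 genes. Alternatives were median-of-ratios size factors, 2 other filters, pseudocounts of 1 and 0.01 FPKM, no trend, limma-voom on recovered reads with TMM scaling, a block for replicate number, a stricter threshold of 0.01, and each library left out.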

Additional observations from a re-analysis of the deposited data

How the results depend on the processing

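G0S2 kept its sign in all 14 refits, with log2 fold changes from -2.08 without control 1 to -1.43 without control 3. Since every knockdown lay below every control, leaving out a library could not change this sign, so the kept sign adds no separate support. None moved it by more than its pooled SD between replicates of 0.47, which came mostly from the controls (0.66, against 0.095 in the knockdowns). G0S2 was not called with no filter, no mean-variance trend, the replicate block or any library other than control 1 left out. Counts of calls depended on the setting. Against 1150 genes, 2 of the 10 droplet genes and 8 of the other lipid genes in the main test, no filter gave 42, 0 and 0, no mean-variance trend 91, 0 and 0, a CPM of at least 1 in 3 libraries 2085, 2 and 16, limma-voom on recovered reads 2736, 4 and 20, and an adjusted p under 0.01 gave 0, 0 and 0. Leaving out single libraries gave 0 to 8093, 0 to 6 and 0 to 64, the upper values without control 1 and 0 without each other library, where 3676 to 4530 genes had an unadjusted p under 0.05 in limma. Median-of-ratios size factors turned 768 genes higher and 382 lower into 338 and 495. Whether replicate numbers pair the samples was not settled. Deviations of same-numbered libraries correlated at 0.149, 0.0781 and 0.0373 across genes, and those of libraries with different numbers at -0.126 to 0.0992. With the replicate block 0 genes, 0 droplet genes and 0 other lipid genes were called, with 5990 genes at an unadjusted p under 0.05. The smallest limma adjusted p was then 0.0541, and the block uses up degrees of freedom, so 0 calls cannot decide on pairing. PNPLA2 and ABHD5 changed sign under some settings, at differences within 0.17. The 87 reads of G0S2 in knockdown 1 and the 104 of LIPE limit the precision of their values.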
